A study of Homo sapiens with 27 samples.

Results

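The genes described here act where pyruvate is either oxidized in the mitochondrion or turned into lactate that leaves the cell. They were chosen by name: the pyruvate dehydrogenase kinases PDK1, PDK2, PDK3 and PDK4, the kinase target PDHA1, the phosphatase PDP1, the lactate dehydrogenase subunits LDHA and LDHB, and the lactate transporters SLC16A1 and SLC16A3. Of these 10 genes, 8 had a probe set that the array annotation assigns to that gene symbol alone, with 21 probe sets between them, out of 41091 such probe sets and 54613 probe sets tested. SLC16A1 and SLC16A3 had none and are not analysed here. Gene expression was measured in 27 cultures, 3 for each of 9 combinations of cell line and oxygen condition, labelled as biological replicates.

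The established lines PC-3, from a prostate cancer, SK-OV-3, from an ovarian cancer, and WM793B, from a melanoma, were used, so each tumor type is represented by 1 line. Each line was grown in its own medium, with less serum and added insulin for WM793B cells. Differences between lines and between media therefore cannot be told apart. All cultures lasted 72 h on glass plates, which do not let oxygen through. Cells under chronic hypoxia stayed at 1% oxygen. Cells under cycling hypoxia spent periods of 4 h or 12 h at 1% oxygen, each followed by 4 h at 21% oxygen, and were collected after reoxygenation, so the shorter time at 1% oxygen and the return to 21% oxygen cannot be told apart in this group. Control cells stayed at 21% oxygen. Every array reads the pooled RNA of a whole culture, and a moderate change in all cells and a larger change in some of them cannot be told apart.

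Pyruvate dehydrogenase turns pyruvate into acetyl-CoA in the mitochondrial matrix. The kinases PDK1 to PDK4 phosphorylate its E1 alpha subunit, encoded by PDHA1, and switch the complex off, while phosphatases such as PDP1 switch it back on. Pyruvate that is not oxidized can be reduced to lactate by lactate dehydrogenase, a tetramer of the LDHA and LDHB subunits, and lactate leaves the cell through monocarboxylate transporters. PDK1 and LDHA are textbook targets of the hypoxia-inducible factor HIF-1, a transcription factor that binds DNA at short sequences with the core ACGTG or GCGTG.

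Promoter windows of 4 of the genes are given here, with this core marked where it occurs. RefSeq (GRCh38.p14) gave a start site for 8 of the 10 genes, with 16 windows of 250 bases directly before a start. PDP1 and SLC16A1 had none. The core (ACGTG or GCGTG, or CACGT or CACGC on the given strand for the opposite one) occurred in 9 of these 16 windows, against 43.2% of all 35116 windows in the table. SLC16A3, whose expression is not analysed here, gave 5 of the 16 windows and 3 of the 9 with a match. ACGTG alone, on either strand, occurred in 5 of the 16 windows and in 18.5% of all windows. The windows below read 5′ to 3′ on the strand of the gene, with every match in capitals. PDK1 and PDK3 are shown as kinases that rose in PC-3 cells, and LDHA and LDHB as the subunits of 1 enzyme that moved in opposite directions. For PDK1 the last 30 bases before the downstream of 2 annotated starts are given, since the window of the upstream start held no match. Overlapping matches form the stretch CACGTG, which reads the same on both strands.
PDK1, chr2:172556060-172556089, + strand: ccctgctgcccgcCACGTccctCACGTacc
PDK3, chrX:24465036-24465285, + strand: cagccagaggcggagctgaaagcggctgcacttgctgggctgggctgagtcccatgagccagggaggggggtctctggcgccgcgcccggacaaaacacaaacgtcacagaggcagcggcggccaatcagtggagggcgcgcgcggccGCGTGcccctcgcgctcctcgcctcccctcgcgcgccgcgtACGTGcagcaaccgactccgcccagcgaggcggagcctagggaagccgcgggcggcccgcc
LDHA, chr11:18394313-18394562, + strand: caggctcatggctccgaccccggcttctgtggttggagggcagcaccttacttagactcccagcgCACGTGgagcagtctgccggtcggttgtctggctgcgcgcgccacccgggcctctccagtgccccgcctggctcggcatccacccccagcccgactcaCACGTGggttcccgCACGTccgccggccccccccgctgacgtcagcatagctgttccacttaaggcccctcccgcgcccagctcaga
LDHB, chr12:21657843-21658092, - strand: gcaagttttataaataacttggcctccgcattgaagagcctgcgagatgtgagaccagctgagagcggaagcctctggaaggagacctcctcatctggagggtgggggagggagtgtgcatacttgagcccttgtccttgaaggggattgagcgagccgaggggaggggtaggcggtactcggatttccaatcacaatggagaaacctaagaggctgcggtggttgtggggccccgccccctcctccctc
The LDHA window held 5 matches in 3 stretches, between 185 and 73 bases before the start. The PDK3 window held 2 matches, which began 102 and 61 bases before the start. The LDHB window held none, nor did that of PDK4. Matches were not limited to genes that rose: 1 of the 3 PDK2 windows held 3 matches and the PDHA1 window held 3, though PDK2 and PDHA1 fell in PC-3 chronic hypoxia. The second LDHA window held 1 match. A match is a description of the letters and was not tested as a binding site.

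The oxygen conditions and the identity of the lines were checked on other genes first. Of 6 genes known to rise in hypoxia, CA9 had no probe set assigned to that symbol alone. The others were ADM, NDRG1, VEGFA, ANKRD37 and EGLN3. Under chronic hypoxia 4 of these 5 rose in PC-3 cells, 5 in SK-OV-3 cells, and 4 in WM793B cells (limma, adjusted p under 0.05). The study itself lists ADM, NDRG1, VEGF and ANKRD37 as raised by chronic hypoxia in each line on these same arrays. For these genes the chronic part of the check is therefore not independent. Under cycling hypoxia 4 rose in PC-3 cells and also 4 in SK-OV-3 cells, but 0 in WM793B cells, where 3 of the 5 were higher at an unadjusted p under 0.05. HOXB13, a prostate transcription factor, averaged at least 8.80 in each PC-3 group and at most 4.57 in each group of the other lines (log2 units). PAX8, a marker of Mullerian epithelium, averaged at least 9.22 in SK-OV-3 groups and at most 4.53 elsewhere. SOX10, a melanocyte lineage factor, averaged at least 10.40 in WM793B groups and at most 2.34 elsewhere. The pigment genes PMEL, MLANA and TYR lay at the floor of the scale in WM793B cells, with group means of at most 2.32. KLK3, which encodes prostate specific antigen, stayed below 5 in PC-3 cells, and MUC16 averaged 2.28 in SK-OV-3 cells. Replicate arrays correlated at 0.9935 or more across all probe sets.

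Expression is given as log2 values, in which a difference of 1 is a 2-fold change. A log2 value of 5 is used as the level below which a probe set counts as close to background. Each gene is read by its brightest probe set, and levels of different genes are not set against each other, since probe sets differ in how strongly they bind. A gene is said to rise or fall where limma's moderated test gave an adjusted p under 0.05 over all 54613 probe sets. Both hypoxia groups of a cell line were compared with the same 3 control arrays.

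In chronic hypoxia, PDK1, PDK3, PDP1 and LDHA rose in PC-3 cells, while PDK2, PDHA1 and LDHB fell. These are 4 and 3 of the 8 genes, and 9 and 7 of the 21 probe sets, beside 10.8% of all probe sets that rose and 14.9% that fell. In SK-OV-3 cells PDK1, PDK3 and LDHA rose and PDHA1, PDP1 and LDHB fell (5 and 6 of the 21 probe sets, beside 7.52% and 8.79% of all). In WM793B cells PDK1 and LDHA rose and LDHB fell (5 and 4 of the 21 probe sets, beside 6.43% and 7.26% of all). The members are mostly well expressed, and among the 18169 probe sets with a mean above 5 the shares were higher. PC-3 cells had 25.9% that rose and 36.8% that fell, SK-OV-3 cells 18.2% and 23.0%, and WM793B cells 15.9% and 17.7%. Only 14 of the 21 member probe sets had a mean above 5. The counts out of 21 and these shares therefore have unlike bases, and whether a count is above its share was not tested. The median change over the 8 genes was 0.01 for PC-3 cells, 0.18 for SK-OV-3 cells and 0.22 for WM793B cells, and the median over all probe sets was 0 in each line. Read by the brightest probe set, only PDK1, in each line, and PDK2, in PC-3 cells, moved at least 2-fold under chronic hypoxia. The PDK3 probe sets 206348_s_at and 221957_at also rose that far, in PC-3 (4.18- and 2.39-fold) and WM793B cells (2.64- and 2.54-fold).

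In cycling hypoxia, the same 4 genes rose in PC-3 cells and PDK2 and LDHB fell (8 and 5 of the 21 probe sets, beside 8.28% and 8.49% of all). In SK-OV-3 cells PDK1 and LDHA rose and PDK3, PDHA1 and LDHB fell (3 and 6 probe sets, beside 5.28% and 4.9%). In WM793B cells PDK1 and LDHA rose and LDHB fell (3 and 3 probe sets, beside 2.16% and 1.87%). Read by the brightest probe set, PDK1 was the gene that moved at least 2-fold in each line. The PDK3 probe sets 206348_s_at and 221957_at rose 6.58- and 3.33-fold in PC-3 cells. Between the hypoxia groups, PDK2, PDHA1 and LDHB were higher in cycling than in chronic hypoxia in PC-3 cells, and none of the 8 genes was lower (6 probe sets were higher and 1 was lower, beside 9.16% and 4.33%). In SK-OV-3 cells PDP1 was higher in cycling hypoxia and PDK1 and PDK3 were lower (1 and 3 probe sets, beside 5.49% and 4.22%). In the WM793B line 0 of the 21 probe sets passed limma's test in either direction (3 were higher and 4 lower at an unadjusted p under 0.05), beside 1.68% of all probe sets in each direction. Among probe sets with a mean above 5, cycling hypoxia gave shares of 21.4% that rose and 21.4% that fell for PC-3, 13.6% and 12.5% for SK-OV-3 and 5.88% and 4.18% for WM793B cells. For cycling against chronic hypoxia they were 24.5% and 10.4% in PC-3 cells, 14.7% and 10.2% for SK-OV-3 and 4.56% and 3.80% for WM793B cells. Here too the counts are out of 21 probe sets, of which 14 had a mean above 5, so they and these shares have unlike bases. For cycling against chronic hypoxia, the counts lower in PC-3 and higher in SK-OV-3 cells (1 of 21 each) lay below these shares. So did the counts of WM793B cells (0). Leaving out replicate 3 of chronic hypoxia brought the count to 5 of 8 genes in SK-OV-3 cells, with PDK4 and LDHA added, and to 1 in the WM793B line, PDK1.

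**Figure D1:**
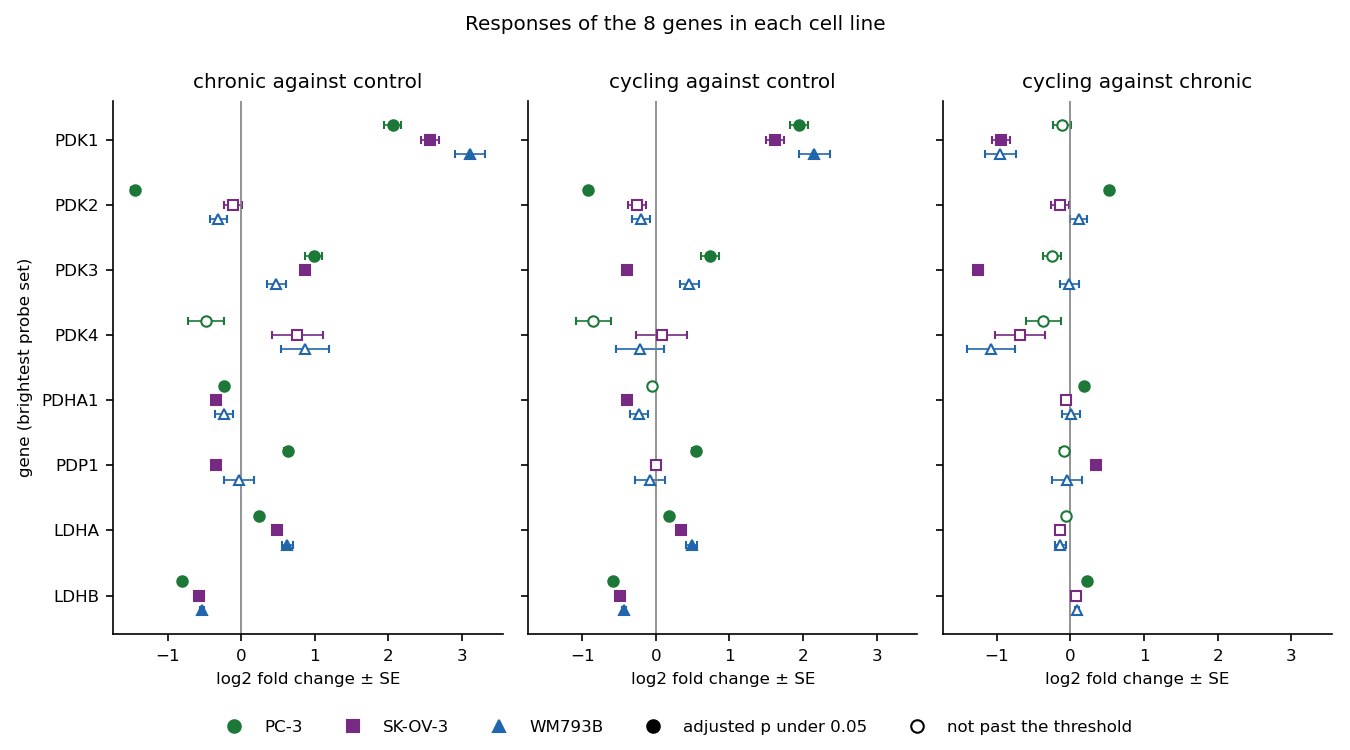
Log2 fold change (± SE) of the 8 genes in each cell line, for chronic hypoxia against control, cycling hypoxia against control and cycling against chronic hypoxia, with filled symbols for an adjusted p under 0.05. PDK1 lies right of 1 in each comparison with control, while the other genes lie within 1.5 log2 units of 0.

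PDK1 is the isoform best known as a HIF-1 target. Read by the brightest probe sets, PDK1 had the highest log2 fold change of the 4 kinases in each line and in both kinds of hypoxia. In PC-3 cells it measured 10.64, 10.47 and 10.49 in chronic hypoxia, 10.43, 10.34 and 10.49 in cycling hypoxia, and 8.25, 8.71 and 8.48 in control cultures. Both kinds of hypoxia lay clear of control and overlapped each other. The log2 fold change was 2.06 (SE 0.12, adjusted p = 4.1e-05) in chronic and 1.94 (SE 0.12, adjusted p = 0.00015) in cycling hypoxia, and -0.11 (SE 0.12, adjusted p = 0.68) for cycling against chronic hypoxia.

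In SK-OV-3 cells PDK1 measured 9.36, 9.55 and 9.38 in chronic hypoxia, 8.64, 8.44 and 8.39 in cycling hypoxia, and 6.65, 6.89 and 7.07 in control cultures. The 3 groups did not overlap, and cycling hypoxia lay between the other groups. The log2 fold change was 2.56 (SE 0.12, adjusted p = 6e-05) in chronic and 1.62 (SE 0.12, adjusted p = 0.00068) in cycling hypoxia. Cycling hypoxia was lower than chronic hypoxia by 0.94 on the log2 scale (log2 fold change -0.94, SE 0.12, adjusted p = 0.0057). Averaging the PDK1 probe sets above 5 gave -0.74 for this difference, with an adjusted p of 0.059.

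In WM793B cells PDK1 measured 10.93, 10.94 and 11.68 in chronic hypoxia, 10.09, 10.23 and 10.38 in cycling hypoxia, and 8.14, 8.07 and 8.03 in control cultures. The groups again did not overlap, with replicate 3 of chronic hypoxia above its other replicates. The fold changes were the highest of the 3 lines, at 3.10 (SE 0.21, adjusted p = 0.00058), an 8.60-fold increase, in chronic hypoxia and 2.15 (SE 0.21, adjusted p = 0.0063) in cycling hypoxia. A moderated test with a trend and robust variance gave an adjusted p of 0.056 for cycling hypoxia. Cycling against chronic hypoxia came to -0.95 (SE 0.21, adjusted p = 0.071), and to -0.71 with an adjusted p of 0.0198 without replicate 3 of chronic hypoxia. The fit of all 27 arrays called this difference too (adjusted p = 0.00042).

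The response of PDK1 to chronic hypoxia differed between the lines (limma F-test of the interaction over 27 arrays, adjusted p = 0.0034). It was one of 7 of the 8 genes for which it did, beside 30.6% of all probe sets. The share among probe sets with a mean above 5 was not determined for this test. WM793B cells exceeded PC-3 cells by 1.05 (SE 0.22, adjusted p = 0.0021), and SK-OV-3 cells exceeded PC-3 cells by 0.51 (SE 0.22, adjusted p = 0.12). For cycling hypoxia the interaction had an adjusted p of 0.26. The step between cycling and chronic hypoxia differed too (adjusted p = 0.014), being lower by 0.83 (SE 0.22, adjusted p = 0.017) in SK-OV-3 than in PC-3 cells. Of the other PDK1 probe sets, 206686_at rose in all 6 comparisons with control, by 1.30 to 3.43. Its response to chronic hypoxia also differed between lines (adjusted p = 0.00088), with WM793B above PC-3 cells by 1.55 and SK-OV-3 minus PC-3 at -0.04. The step between cycling and chronic hypoxia did not pass the interaction test in this probe set (adjusted p = 0.12, SK-OV-3 minus PC-3 -0.47). The third, 239798_at, did not exceed 4.71 on any array. It lay at 4.01, 4.50 and 4.71 in PC-3 chronic hypoxia, against 2.32, 2.28 and 2.32 in control cultures. At these levels below 5 it passed the test in chronic hypoxia against control and in cycling against chronic hypoxia, in PC-3 (2.10 and -2.08) and SK-OV-3 cells (1.22 and -1.21).

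**Figure D2:**
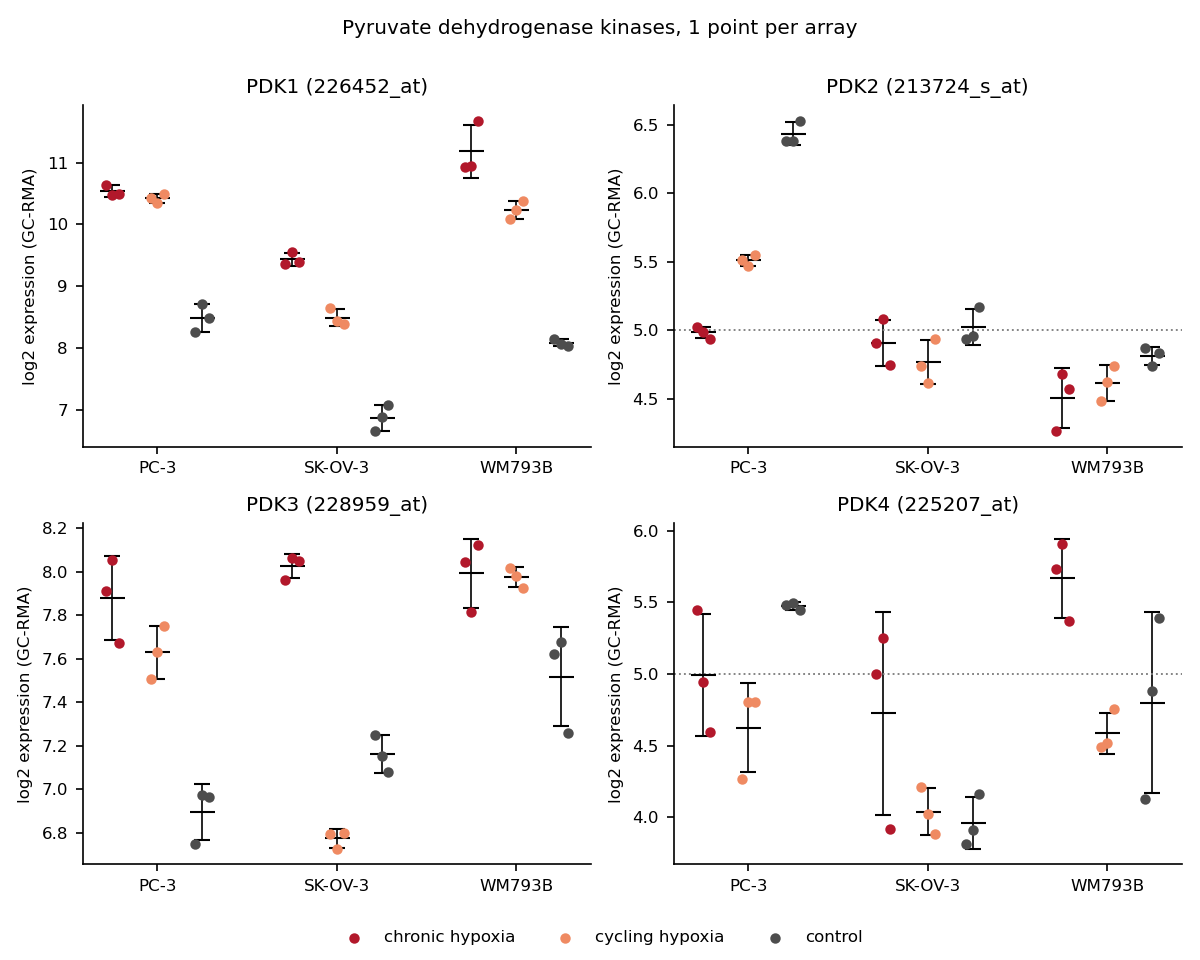
Log2 expression of PDK1, PDK2, PDK3 and PDK4 (brightest probe set) on each of the 27 arrays, by cell line and condition, with the mean and SD of each group and, for PDK2 and PDK4, a dotted line at 5. PDK1 control cultures lie below both hypoxia groups in each line, PDK2 separates the groups in PC-3 cells, and PDK4 points scatter around 5.

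PDK2 fell in PC-3 cells. It measured 5.02, 4.99 and 4.94 in chronic hypoxia, 5.52, 5.47 and 5.55 in cycling hypoxia, and 6.39, 6.38 and 6.53 in control cultures. The groups were separate, with chronic hypoxia the lowest, and its values sat at the level taken as background. The log2 fold change was -1.45 (SE 0.05, adjusted p = 5.4e-06) in chronic and -0.92 (SE 0.05, adjusted p = 8e-05) in cycling hypoxia, and cycling exceeded chronic hypoxia by 0.53 (SE 0.05, adjusted p = 0.0011). The second probe set, 202590_s_at, fell by 1.31 and 0.92 against control, to levels below 5. Its difference of cycling against chronic hypoxia did not pass limma's test (0.39, adjusted p = 0.31).

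In SK-OV-3 cells PDK2 measured 4.91, 5.08 and 4.74 in chronic hypoxia, 4.74, 4.62 and 4.94 in cycling hypoxia, and 4.94, 4.96 and 5.17 in control cultures, with overlapping groups. In WM793B cells it measured 4.27, 4.69 and 4.57 in chronic, 4.48, 4.63 and 4.74 in cycling hypoxia, and 4.87, 4.74 and 4.84 in control cultures. These values lay near or below 5, and how far this limits a fall was not tested. No comparison in either line passed the test in the fit by line (-0.31 to -0.12 against control). In WM793B cells chronic hypoxia lay below control without overlap, and the fit of all 27 arrays called this fall (-0.31, adjusted p = 0.039). The second probe set, 202590_s_at, gave 0.20 in WM793B chronic hypoxia (limma, adjusted p = 0.40). The response of PDK2 differed between the lines for chronic (adjusted p = 1.1e-06) and for cycling hypoxia (adjusted p = 0.0016). Cycling hypoxia gave 4 such genes of 8, beside 19.8% of all probe sets, with no share determined for those with a mean above 5. How far the low control level of PDK2 outside PC-3 cells sets this difference was not tested.

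PDK3, the isoform with the highest activity towards the complex in biochemical assays, moved in different directions in different lines. In PC-3 cells it measured 7.91, 8.05 and 7.67 in chronic hypoxia, 7.51, 7.63 and 7.75 in cycling hypoxia, and 6.75, 6.98 and 6.96 in control cultures. Both hypoxia groups lay above control, by 0.98 (SE 0.12, adjusted p = 0.001) in chronic and 0.73 (SE 0.12, adjusted p = 0.0071) in cycling hypoxia.

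In SK-OV-3 cells PDK3 measured 7.96, 8.06 and 8.05 in chronic hypoxia, 6.80, 6.73 and 6.80 in cycling hypoxia, and 7.25, 7.15 and 7.08 in control cultures. Here the hypoxia groups fell on opposite sides of control without overlap. PDK3 rose by 0.86 (SE 0.05, adjusted p = 0.00013) in chronic hypoxia and fell by 0.39 in cycling hypoxia (log2 fold change -0.39, SE 0.05, adjusted p = 0.0052), a difference of -1.25 (SE 0.05, adjusted p = 0.00015) for cycling against chronic hypoxia. With the mean of its 3 probe sets above 5 over the 27 arrays, both calls against control were lost (0.64, adjusted p = 0.059, and -0.27, adjusted p = 0.58). In SK-OV-3 cells, though, 221957_at (group means 4.11 to 4.97) and 206348_s_at (3.74 to 4.35) lay below 5. In WM793B cells it measured 8.04, 7.81 and 8.12 in chronic, 8.02, 7.98 and 7.93 in cycling hypoxia, and 7.62, 7.68 and 7.26 in control cultures, 0.47 (SE 0.13, adjusted p = 0.062) and 0.46 (SE 0.13, adjusted p = 0.13) above control. Each hypoxic WM793B array exceeded each control array, and a fit of all 27 arrays called both increases (adjusted p = 0.0025 and 0.0074).

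The response of PDK3 to cycling hypoxia differed between the lines (adjusted p = 4.8e-05). SK-OV-3 cells lay below PC-3 cells by 1.12 (difference -1.12, SE 0.15, adjusted p = 2.9e-05), and WM793B cells above SK-OV-3 cells by 0.84 (SE 0.15, adjusted p = 0.00059). For chronic hypoxia the adjusted p was 0.031, and the difference of WM793B minus PC-3 cells was -0.51 (SE 0.15, adjusted p = 0.024).

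The PDK3 probe sets did not give one size of response. In PC-3 cells 206348_s_at measured 6.19, 6.04 and 6.18 in chronic hypoxia, 6.70, 6.91 and 6.75 in cycling hypoxia, and 4.09, 4.09 and 4.02 in control cultures, so that the groups were separate and control lay below 5. Its log2 fold changes were 2.06 (SE 0.07, adjusted p = 5.4e-06) and 2.72 (SE 0.07, adjusted p = 1.6e-05), and cycling exceeded chronic hypoxia by 0.65 (SE 0.07, adjusted p = 0.0018). The brightest probe set, 228959_at, gave -0.25 (SE 0.12, adjusted p = 0.29) for that comparison. The direction of cycling against chronic hypoxia in PC-3 cells thus depended on the probe set read. The probe set 221957_at rose in PC-3 cells by 1.26 and 1.73 and in WM793B chronic hypoxia by 1.34, and 206348_s_at rose in WM793B chronic hypoxia by 1.40. In SK-OV-3 cells, where both had group means below 5, neither of these passed the test against control. The remaining 2, 230085_at and 206347_at, had means below 5 and passed no test against control.

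**Figure D3:**
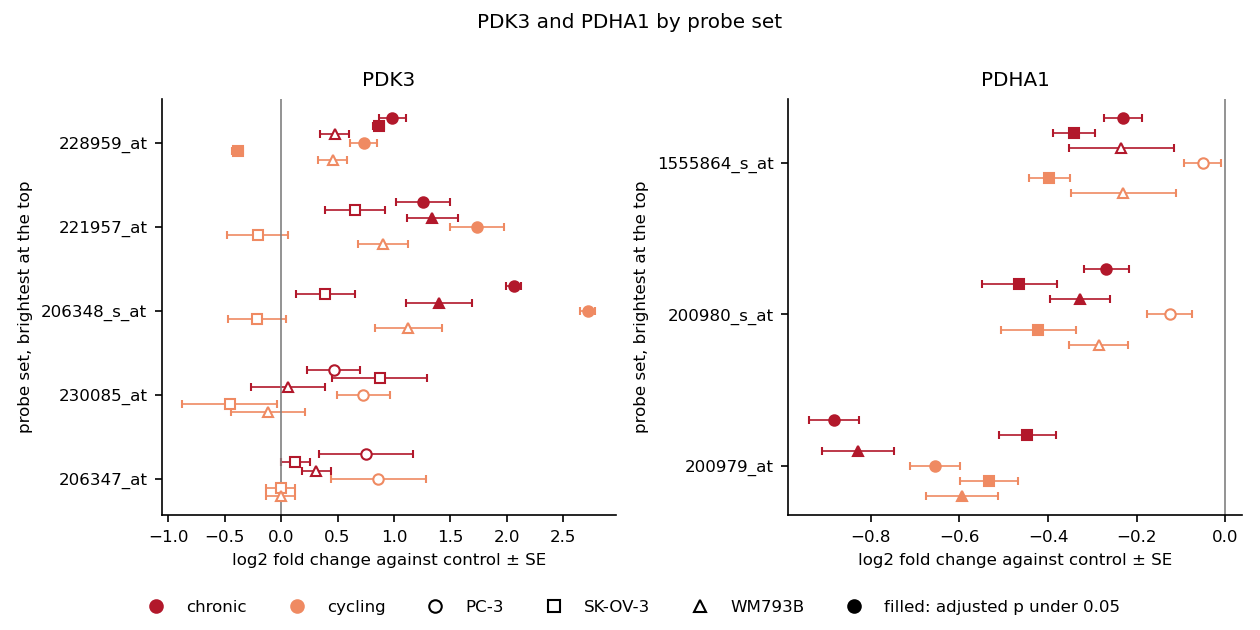
Log2 fold change against control (± SE) for each probe set of PDK3 (5) and PDHA1 (3), brightest at the top, with colour for chronic and cycling hypoxia, shape for the cell line and filled symbols for an adjusted p under 0.05. PDK3 responses in PC-3 cells run between 0.47 and 2.72 over its probe sets, and all PDHA1 values lie below 0.

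PDK4, which is induced by fasting and fatty acids in muscle and liver, stayed close to background. Its brightest probe set exceeded 5 on 10 of 27 arrays, and the other 2 did not exceed 3.23 on any array. In PC-3 cells it measured 5.45, 4.94 and 4.60 in chronic hypoxia, 4.27, 4.81 and 4.81 in cycling hypoxia, and 5.48, 5.49 and 5.45 in control cultures. In SK-OV-3 cells it measured 5.00, 5.25 and 3.92 in chronic, 4.21, 4.03 and 3.88 in cycling hypoxia, and 3.81, 3.91 and 4.16 in control cultures. In WM793B cells it measured 5.73, 5.91 and 5.37 in chronic, 4.49, 4.52 and 4.75 in cycling hypoxia, and 4.13, 4.88 and 5.39 in control cultures.

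Replicates of PDK4 were spread over more than 1 log2 unit in SK-OV-3 chronic hypoxia and in WM793B control cultures. No comparison passed the test in the fit by line. The values for chronic hypoxia were -0.48 (SE 0.24) for PC-3, 0.76 (SE 0.34) for SK-OV-3 and 0.87 (SE 0.32) for WM793B cells, and for cycling hypoxia -0.85 (SE 0.24, adjusted p = 0.064), 0.08 and -0.21. Cycling against chronic hypoxia gave -0.37, -0.69 and -1.08 in the same order of lines. In WM793B cells these groups did not overlap (SE 0.32, adjusted p = 0.16), and the fit of all 27 arrays called the difference (adjusted p = 0.031). The interaction of chronic hypoxia with the line had an adjusted p of 0.037, and of 0.069 after a further quantile normalization. Without replicate 3 of SK-OV-3 chronic hypoxia, at 3.92, the chronic response in that line was 1.17 with an adjusted p of 0.0074. Leaving out chronic replicate 1 or 3 of PC-3, which changes only the estimate of the spread, gave adjusted p values of 0.030 and 0.044 for the PDK4 value of -0.85 in cycling hypoxia, and the study's variation filter gave 0.022.

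The isoforms were then compared directly through the log2 ratio of each pair on the same array, averaged over the 3 lines. Condition labels were permuted within each line in an exact two-sided test over 18 arrays with 8000 arrangements, whose smallest p is 0.00025, and 18 tests were made. Of these, 12 passed after adjustment over the 18 tests. PDK1 exceeded every other isoform in its response to hypoxia. In chronic hypoxia the PDK1 response was higher than that of PDK2 by 3.20 (SE 0.10), of PDK3 by 1.80 (SE 0.11) and of PDK4 by 2.19 (SE 0.24), each with an exact p of 0.00025 and an adjusted p of 0.0005, in the same direction in 3 of 3 lines.

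In cycling hypoxia the PDK1 response was higher than that of PDK2 by 2.37 (SE 0.07), of PDK3 by 1.64 (SE 0.09) and of PDK4 by 2.23 (SE 0.15), with the same exact p, adjusted p and number of lines. With the mean of a gene's probe sets above 5, PDK1 still exceeded PDK3, by 1.43 in chronic and 1.10 in cycling hypoxia. Read by 206348_s_at alone, though, the PDK3 response of PC-3 cells (2.06 and 2.72) was no lower than that of PDK1 (2.06 and 1.94). PDK2 responded lower than PDK3 by 1.40 in chronic hypoxia (-1.40, SE 0.10, exact p = 0.00025, adjusted p = 0.0005, 3 of 3 lines), at -2.43 for PC-3, -0.98 for SK-OV-3 and -0.78 for WM793B cells. In cycling hypoxia PDK2 minus PDK3 was -0.73 (SE 0.08, exact p = 0.0078, adjusted p = 0.012), but it was 0.13 in SK-OV-3 cells. Leaving out any one replicate number brought its adjusted p to between 0.077 and 0.083. PDK2 also responded lower than PDK4 in chronic hypoxia (-1.01, SE 0.19, exact p = 0.00025, adjusted p = 0.0005, 3 of 3 lines).

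For cycling against chronic hypoxia, PDK1 shifted lower than PDK2 by 0.83 (-0.83, SE 0.10, exact p = 0.00025, adjusted p = 0.0005, 3 of 3 lines). PDK2 shifted higher than PDK3 by 0.67 (SE 0.09, exact p = 0.0015, adjusted p = 0.0025) and higher than PDK4 by 0.88 (SE 0.17, adjusted p = 0.0014), again in 3 of 3 lines. With the mean of a gene's probe sets above 5, PDK2 minus PDK3 still passed (0.45, adjusted p = 0.0033). Single probe sets differed, though. In PC-3 cells the PDK3 probe set 206348_s_at shifted by 0.65, above PDK2 at 0.53. In WM793B cells the PDK2 probe set 202590_s_at shifted by -0.22, below PDK3 at -0.02. PDK1 and PDK3 differed by -0.16 (SE 0.09, adjusted p = 0.43), at 0.14 for PC-3, 0.31 for SK-OV-3 and -0.94 for WM793B cells. PDK1 minus PDK4 was 0.04 (SE 0.21, adjusted p = 0.83), and 0.37 with an adjusted p of 0.015 without replicate 3. PDK3 and PDK4 did not pass the test in any of the 3 comparisons (0.39 in chronic and 0.60 in cycling hypoxia, 0.21 between them, adjusted p = 0.28, 0.066 and 0.45). With the mean of a gene's probe sets above 5, PDK3 minus PDK4 passed in cycling hypoxia (1.09, adjusted p = 0.021) and for cycling against chronic hypoxia (0.43, adjusted p = 0.047), as did PDK1 minus PDK3 for the second of these (-0.33, adjusted p = 0.047). PDK2 minus PDK4 in cycling hypoxia was -0.13 (adjusted p = 0.45). PDK2 and PDK4 lay near background in most groups, and how far this limits the differences that involve them was not tested.

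**Figure D4:**
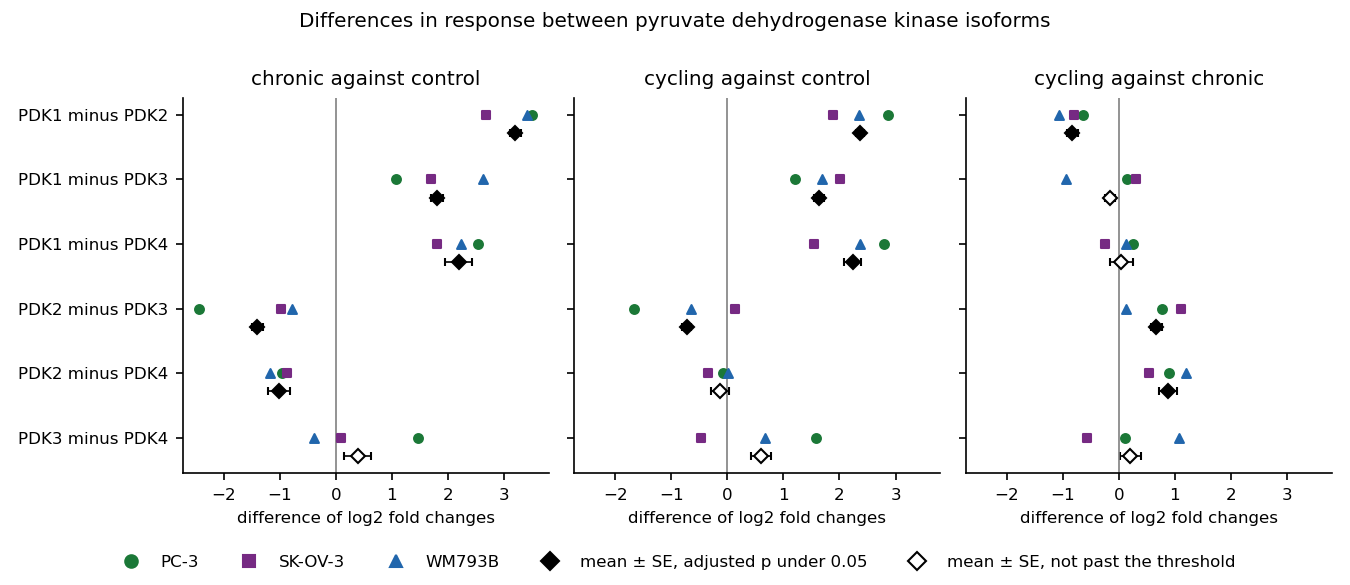
Difference between the log2 fold changes of 2 kinase isoforms, for 6 pairs and 3 comparisons, with coloured symbols for each cell line and black diamonds for the mean over lines (± SE), filled for an adjusted p under 0.05. The pairs with PDK1 lie between 1.07 and 3.51 in each line for both comparisons with control.

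PDHA1, the subunit on which the kinases act, moved by less than PDK1 and downwards. In PC-3 cells its brightest probe set measured 9.94, 9.99 and 9.90 in chronic hypoxia, 10.21, 10.06 and 10.10 in cycling hypoxia, and 10.15, 10.21 and 10.16 in control cultures. Chronic hypoxia lay below the other groups, which overlapped (log2 fold change -0.23, SE 0.04, adjusted p = 0.0068, against -0.05, SE 0.04, adjusted p = 0.61 in cycling hypoxia). Cycling against chronic hypoxia was 0.18 (SE 0.04, adjusted p = 0.037). This last call was lost in 7 of 9 fits with 1 array left out and in the fit of all 27 arrays (adjusted p = 0.17).

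In SK-OV-3 cells PDHA1 measured 9.74, 9.84 and 9.76 in chronic, 9.79, 9.72 and 9.67 in cycling hypoxia, and 10.09, 10.20 and 10.08 in control cultures, and it fell in both (-0.34, SE 0.05, adjusted p = 0.0038, and -0.40, SE 0.05, adjusted p = 0.0035). In WM793B cells the values were 8.92, 8.89 and 9.13 in chronic, 9.11, 8.73 and 9.11 in cycling hypoxia, and 9.26, 9.19 and 9.19 in control cultures. Each hypoxic array lay below each control array, but neither comparison passed (-0.23, SE 0.12, in both). The probe set 200979_at fell in all 6 comparisons, by 0.45 to 0.88, and 200980_s_at in 4 of 6. With the mean of the 3 PDHA1 probe sets, all 6 comparisons passed the test. Read by its brightest probe set, PDHA1 passed the interaction test for neither kind of hypoxia (adjusted p = 0.75 in chronic and 0.089 in cycling hypoxia). Read by 200979_at, its response to chronic hypoxia did differ between lines (adjusted p = 0.0026), with a smaller fall in SK-OV-3 than in PC-3 cells (difference 0.44, SE 0.10, adjusted p = 0.0022).

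PDP1, a phosphatase that reactivates the complex, rose in PC-3 cells alongside the kinases PDK1 and PDK3. It measured 11.13, 11.10 and 11.13 in chronic, 11.05, 11.04 and 11.01 in cycling hypoxia, and 10.60, 10.36 and 10.49 in control cultures. The increase was 0.64 (SE 0.05, adjusted p = 0.00021) and 0.55 (SE 0.05, adjusted p = 0.00096), and the second probe set rose by 0.76 and 0.59. In SK-OV-3 cells PDP1 measured 9.67, 9.51 and 9.64 in chronic, 9.94, 9.90 and 10.02 in cycling hypoxia, and 10.02, 9.94 and 9.89 in control cultures. It was lower in chronic hypoxia than in the other groups, which overlapped (-0.35, SE 0.06, adjusted p = 0.0084 against control, and 0.34, SE 0.06, adjusted p = 0.015 for cycling against chronic hypoxia).

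Both PDP1 calls in SK-OV-3 cells were lost in the fit of all 27 arrays (adjusted p = 0.061 and 0.080) and with the mean of the 2 probe sets (adjusted p = 0.095 and 0.30), and the second also without replicate 1 of cycling hypoxia (adjusted p = 0.052). In WM793B cells PDP1 measured 10.94, 10.83 and 11.12 in chronic, 10.93, 10.97 and 10.83 in cycling hypoxia, and 10.69, 10.83 and 11.46 in control cultures. The groups overlapped, with control replicate 3 above all other arrays of the line (-0.03 and -0.08 against control, SE 0.20). The response differed between lines in chronic hypoxia (adjusted p = 0.00071), with SK-OV-3 below PC-3 cells (difference -0.99, SE 0.18, adjusted p = 0.00033), and in cycling hypoxia (adjusted p = 0.029).

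LDHA and LDHB, the subunits of lactate dehydrogenase, moved in opposite directions in all 3 lines. LDHA, which favours the reduction of pyruvate, measured 14.46, 14.45 and 14.36 in PC-3 chronic hypoxia, 14.40, 14.37 and 14.30 in cycling hypoxia, and 14.18, 14.19 and 14.17 in control cultures. It lay near the top of the scale, whose highest value on any array was 15.52, and how far a ceiling limits its changes was not tested. The increase was 0.25 (SE 0.04, adjusted p = 0.0024) in chronic and 0.18 (SE 0.04, adjusted p = 0.016) in cycling hypoxia, without overlap with control. The cycling call in PC-3 cells was lost without cycling replicate 1 or 2 or control replicate 1 or 3 (adjusted p from 0.051 to 0.060).

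In SK-OV-3 cells LDHA measured 14.55, 14.60 and 14.45 in chronic, 14.38, 14.41 and 14.37 in cycling hypoxia, and 14.00, 14.06 and 14.09 in control cultures, rising by 0.48 (SE 0.04, adjusted p = 0.0006) and 0.34 (SE 0.04, adjusted p = 0.0042). In WM793B cells it measured 13.98, 13.97 and 13.98 in chronic, 13.78, 13.85 and 13.88 in cycling hypoxia, and 13.43, 13.45 and 13.17 in control cultures, rising by 0.63 (SE 0.08, adjusted p = 0.0035) and 0.49 (SE 0.08, adjusted p = 0.025). In both lines the 3 groups did not overlap. The WM793B cycling call was lost in 6 of 9 fits with 1 array left out (adjusted p up to 0.088), with a trend and robust variance (adjusted p = 0.20) and with the replicate number as a block (adjusted p = 0.078). Cycling and chronic hypoxia did not differ by the test in any line (-0.06 to -0.14), except that SK-OV-3 cells gave -0.18 with an adjusted p of 0.027 without chronic replicate 3. The response to chronic hypoxia differed between the lines (adjusted p = 0.0021), and WM793B exceeded PC-3 cells by 0.38 (SE 0.08, adjusted p = 0.0014). For cycling hypoxia the adjusted p was 0.021, and 0.17 after a further quantile normalization.

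LDHB, the subunit with a higher affinity for lactate, fell in each comparison with control. In PC-3 cells it measured 11.85, 11.94 and 11.85 in chronic, 12.07, 12.15 and 12.08 in cycling hypoxia, and 12.75, 12.66 and 12.65 in control cultures. The groups were separate, with log2 fold changes of -0.81 (SE 0.04, adjusted p = 2.2e-05) and -0.59 (SE 0.04, adjusted p = 0.00021), and cycling exceeded chronic hypoxia by 0.22 (SE 0.04, adjusted p = 0.014). In SK-OV-3 cells it measured 11.96, 11.94 and 11.99 in chronic, 12.08, 12.06 and 12.00 in cycling hypoxia, and 12.51, 12.58 and 12.52 in control cultures (-0.57, SE 0.03, adjusted p = 5.8e-05, and -0.49, SE 0.03, adjusted p = 0.00025). These groups too did not overlap.

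In WM793B cells LDHB measured 13.10, 13.13 and 13.12 in chronic, 13.17, 13.22 and 13.26 in cycling hypoxia, and 13.67, 13.67 and 13.61 in control cultures, without overlap (-0.53, SE 0.03, adjusted p = 0.00029, and -0.44, SE 0.03, adjusted p = 0.0017). A trend and robust variance gave an adjusted p of 0.15 for the second. The fall in chronic hypoxia was smaller in WM793B than in PC-3 cells by 0.28 (SE 0.05, adjusted p = 0.00018) and smaller in SK-OV-3 than in PC-3 cells by 0.23 (SE 0.05, adjusted p = 0.00055). The second probe set, 201030_x_at, fell in all 6 comparisons, by 0.46 to 0.77, but did not show this difference between lines (0.11 in both, SE 0.07, interaction adjusted p = 0.37). Both LDHB probe sets are of a kind (suffix x_at) that can also bind transcripts of similar sequence, and the signal of such transcripts was not separated.

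**Figure D5:**
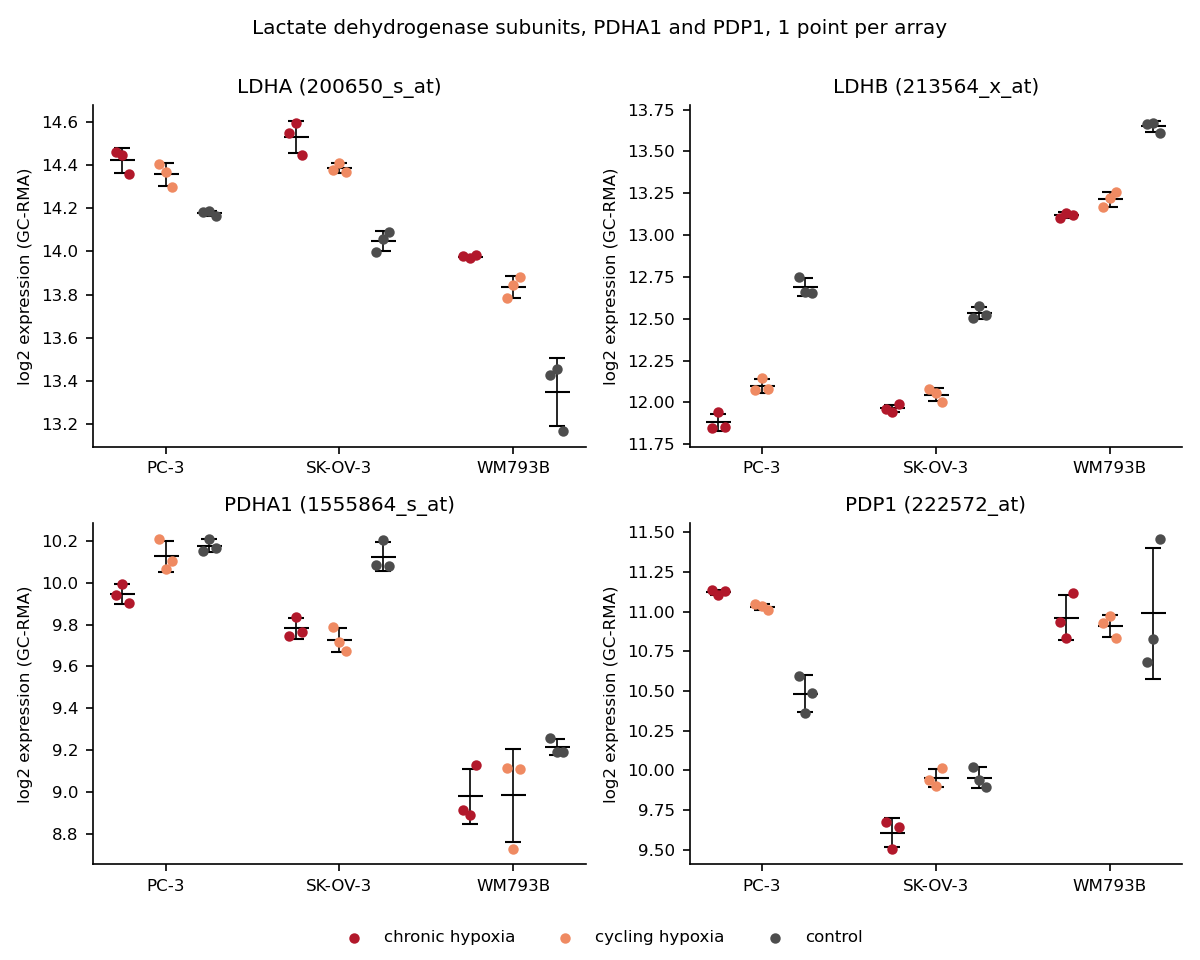
Log2 expression of LDHA, LDHB, PDHA1 and PDP1 (brightest probe set) on each of the 27 arrays, by cell line and condition, with the mean and SD of each group. LDHA lies higher and LDHB lower than control in both kinds of hypoxia in each line, and PDP1 separates hypoxia from control in PC-3 cells.

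Over the 27 arrays, with each line centred on its own mean, the brightest probe set of PDK1 correlated at 0.94 with LDHA, at 0.69 with PDK3, at 0.22 with PDK4, at -0.60 with PDK2 and at -0.92 with LDHB. These are descriptions over arrays that share lines and oxygen conditions. Among 16251 probe sets with 1 gene symbol and a mean above 5, those most like PDK1 belonged to WDR54 (r = 0.975), BNIP3 (r = 0.972), which encodes a mitochondrial protein of cell death and mitophagy, and PGK1 (r = 0.971), a glycolytic enzyme. LDHA was most like FAM162A (r = 0.959), PGK1 (r = 0.946) and WDR54 (r = 0.944). PDK2 was most like CISD1 (r = 0.946), GALNT7 (r = 0.945) and C5 (r = 0.936), and PDK3 was most like DYNC2I1 (r = 0.911), GLT8D1 (r = 0.902) and DENND4C (r = 0.899). For PDK4 the highest values were lower, at 0.762 for RAB20, 0.753 for ANKRD28 and 0.747 for ESD.

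A further 17 genes of pyruvate handling were listed (other subunits of the complex, its regulators, pyruvate carriers, transporters and their partners). Of these, 16 had a probe set assigned to that symbol alone. PC-3 cells had 5 that rose and 8 that fell in chronic hypoxia, and 1 and 5 in cycling hypoxia. SK-OV-3 cells had 2 that rose and 4 that fell in chronic hypoxia, and again 2 and 4 in cycling hypoxia. WM793B cells had 4 and 4 in chronic hypoxia, and 2 and 0 in cycling hypoxia, where 4 were lower at an unadjusted p under 0.05 (limma). The shares of probe sets above 5 that rose and fell, given above for each line, are the background of these counts: for PC-3 cells they were 25.9% and 36.8% in chronic hypoxia and 21.4% each in cycling hypoxia. The median change was -0.24, 0.13 and -0.08 in chronic hypoxia and -0.08, 0.00 and -0.06 in cycling hypoxia, each given for PC-3, SK-OV-3 and WM793B in turn, where the median over all probe sets was 0.

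Among the catalytic subunits of the complex, DLAT (E2) fell in PC-3 cells, to 8.50 ± 0.16 in chronic and 9.25 ± 0.07 in cycling hypoxia, against 9.97 ± 0.01 in control cultures (SD, n = 3 each). Its log2 fold changes were -1.46 (adjusted p = 3.1e-05) and -0.72 (adjusted p = 0.0013). DLD (E3) was at 10.53 ± 0.01 and 11.26 ± 0.06, against 11.63 ± 0.09 in the control cultures of this line, a change of -1.10 (adjusted p = 1.5e-05) in chronic and -0.37 (adjusted p = 0.0026) in cycling hypoxia. DLD also fell in chronic hypoxia of SK-OV-3 (-0.94) and WM793B cells (-0.54). Neither subunit reached a 2-fold change outside PC-3 cells.

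MPC1, a subunit of the carrier that brings pyruvate into the mitochondrion, fell in chronic hypoxia of each line. It reached 5.49 ± 0.03 in chronic and 6.25 ± 0.11 in cycling hypoxia of SK-OV-3 cells, against 7.71 ± 0.04 in control cultures (log2 fold changes -2.22, adjusted p = 1.1e-05, and -1.47, adjusted p = 0.0001). BCKDK, the related kinase of branched-chain ketoacid dehydrogenase, rose in all 6 comparisons, by 0.48 to 1.12, with 8.39 ± 0.17 in SK-OV-3 chronic hypoxia, against 7.26 ± 0.06 in control cultures. EMB, which encodes embigin, a partner of monocarboxylate transporters, fell in PC-3 cells to 3.70 ± 0.00 in chronic and 4.21 ± 0.51 in cycling hypoxia, against 6.67 ± 0.27 in control cultures (-2.97, adjusted p = 0.00024, and -2.45, adjusted p = 0.0012). Both hypoxia means lie below 5, and how far background limits the size of this fall was not tested. SLC16A4, a member of the transporter family, passed the test in PC-3 chronic hypoxia (1.16, adjusted p = 0.018) at levels below 5, 3.64 ± 0.06 in chronic hypoxia against 2.49 ± 0.28 in control cultures.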

How the data were processed

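The authors hybridized total RNA of 27 cultures to Affymetrix arrays and, per the labels, processed them with GC-RMA, which subtracts a background set by probe sequence, normalizes between arrays and summarizes each probe set. The deposited values are log2 expression, from 2.28 to 15.52. GC-RMA can shrink probe sets near background, so changes there can be understated, and how far this holds here was not tested. The number of arrays limits the precision, and p-values measure the spread between 3 cultures a group. No scan dates were used.

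The 62 array control probe sets were left out. Of the rest, 41091 carried 1 gene symbol, 1801 several and 11721 none. In each cell line, limma (3.58.1, R 4.3.3) was fitted to 9 arrays in 3 conditions, with Benjamini-Hochberg adjustment over 54613 probe sets, and interactions to all 27 arrays. The whole table was fitted, and the study's variation filter, tried as an alternative, kept 15 of the 21 member probe sets. Isoforms were compared by exact permutation tests (Python 3.11.15). Genes were read by the brightest probe set. Listed pathway genes were named at 2-fold or more with an adjusted p under 0.05 against control, and for the 4 kinases and LDHA the 3 most correlated genes. The members and lists were chosen with earlier results of these data known. On simulated data with these spreads, limma recovered 71.0%, 59.0% and 48.0% of 2-fold changes (chronic against control in PC-3, SK-OV-3 and WM793B, 100 probe sets each of 54613). Alternatives changed the filter, normalization, variance model, probe set, samples and replicates. Promoters came from RefSeq (GRCh38.p14).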

Additional observations from a re-analysis of the deposited data

Results flagged for a closer look

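Responses that differed between the cell lines (limma F-test of the interaction over 27 arrays, adjusted over 54613 probe sets) are given here with their adjusted p. For chronic hypoxia these were PDK1 (0.0034), PDK2 (1.1e-06), PDK3 (0.031), PDK4 (0.037), PDP1 (0.00071), LDHA (0.0021) and LDHB (0.00012), which is 7 of 8 genes, beside 30.6% of all probe sets. For cycling hypoxia these were PDK2 (0.0016), PDK3 (4.8e-05), PDP1 (0.029) and LDHA (0.021), 4 of 8 genes, beside 19.8% of all. Both shares cover all probe sets, while the members are mostly well expressed. The share among the 18169 probe sets with a mean above 5 was not determined for this test. PDK2 and PDK4 lay near background in part of the groups, and the part of this in their differences was not tested.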

How the results depend on the processing

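No call changed its direction under any alternative. Of 1197 repeats of a single gene's comparison, 1139 stayed on the same side of the threshold, 32 lost and 26 gained it, and 21 uncalled values changed sign. At the stricter rule of an adjusted p under 0.05 and at least 2-fold, the number of genes called for chronic hypoxia was 2 (PC-3), 1 (SK-OV-3) and 1 (WM793B), for cycling hypoxia 1 in each line, and for cycling against chronic hypoxia 0 (PC-3) and 1 (SK-OV-3). In WM793B cells the count was 6 (chronic) and 2 (cycling against chronic) in a fit of all 27 arrays, 5 (chronic) and 5 (cycling) with the mean of a gene's probe sets above 5, 0 (cycling) with a trend and robust variance, and 1 (cycling against chronic) with the study's variation filter or only probe sets above 5. In SK-OV-3 cells the mean of probe sets left 1 gene called for cycling against chronic hypoxia. With 1 array left out, that count ran between 2 and 5 (SK-OV-3), while the WM793B count ran between 0 and 1. Under the variation filter, 2 genes differed between lines in their response to cycling hypoxia, where the filter removes PDK2 and LDHA. Of the isoform tests, PDK2 minus PDK3 in cycling hypoxia ran from -0.77 to -0.68 with a replicate number left out, each time no longer past the threshold, where the smallest p is 0.0093. PDK1 minus PDK4 for cycling against chronic hypoxia ran from -0.17 to 0.37. With the mean of probe sets, PDK1 minus PDK3 (-0.33) and PDK3 minus PDK4 (0.43) for cycling against chronic hypoxia and PDK3 minus PDK4 in cycling hypoxia (1.09) passed. The causes of these changes were not tested.

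Over 27 pairs of cultures with the same replicate number, deviations from the group means correlated at -0.11 to 0.29, with 9 above 0.1, so the numbers were not taken to pair the cultures in general. In WM793B cells 5 of 9 pairs were above 0.1, and all 3 pairs of cycling and chronic hypoxia were (0.12 to 0.20), where the block still called 0 genes. With the replicate block, genes called in chronic hypoxia numbered 7, 6 and 3 in PC-3, SK-OV-3 and WM793B cells, and LDHA in WM793B cycling hypoxia and PDHA1 in PC-3 cycling against chronic hypoxia were no longer called (adjusted p = 0.078 and 0.098). No isoform test changed sides with the block. Centring on the median moved the median change by at most 0.04 and no call.

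The limits lie in the size and level of the changes. With 3 arrays a group, part of the simulated 2-fold changes were missed, PDK2 and PDK4 lay near background, and LDHA near the top of the scale.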
